A study of Mus musculus with 2 samples.

Results

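The genes described here are 42 genes of DNA damage sensing and repair, chosen by name. All 42 were found among the 32285 gene symbols of the count files. By route they were 17 genes of double-strand break sensing and repair, 9 of base excision and single-strand break repair, 8 of nucleotide excision repair, and 8 of bypass synthesis, nucleotide supply, replication clamp, single-strand DNA binding and mismatch repair. Across these routes, 6 genes (Xpc, Ddb2, Polk, Polh, Rrm2b and Pcna) are known direct targets of p53, the transcription factor that responds to DNA damage.

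Cells sense a broken DNA end through the kinases ATM, ATR and DNA-PK and through the MRE11-RAD50-NBN complex, and they rejoin it by end joining (Ku, DNA-PK, XRCC4 and LIG4) or by homologous recombination (BRCA1 and BRCA2), which needs a sister chromatid and is therefore used in dividing cells. Damaged bases are cut out by glycosylases and the gap is sealed through XRCC1, PARP1 and a DNA ligase, while bulky lesions are removed by nucleotide excision repair. Doxorubicin (Dox) traps topoisomerase II on DNA and leaves double-strand breaks. The retinal pigment epithelium (RPE) is a layer of non-dividing pigmented cells behind the photoreceptors.

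Single-cell RNA had been measured from the RPE, choroid and sclera of C57BL/6J mice aged 3 months. The Dox group received 1 µl of Dox at 100 ng/µl under the retina and the Control group received PBS, and tissue was taken 7 days later. The study states that Dox given in this way reached only part of the RPE. Each group was 1 library in which 10 eyes of 5 mice had been pooled, so there was no replicate and no test between the groups. Every interval below is a 95% interval of counting error only, and Dox, animal pool and library cannot be told apart.

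After filtering, 20180 Control and 15426 Dox cells remained, with a median of 4495 and 4995 unique molecular identifiers (UMIs, counts of distinct RNA molecules) per cell, and the libraries shared 441 cell barcodes. RPE cells were taken as cells with at least 10 UMIs of Rpe65, the retinoid isomerase that defines this cell type. The Control library gave 1526 of them and the Dox library 1630, at median depths of 16013.5 and 18115.5 UMIs. When all cells were clustered, 1328 of these Control cells and 1409 of these Dox cells fell in the RPE cluster. Most others fell in a melanocyte cluster (72 and 44), a cluster led by Snhg7os (88 and 107) or a fibroblast cluster (19 and 54). The 9 RPE markers summed to 99173 CPM (UMIs scaled to the same total in each group of cells) in Control and 100205 in Dox, whereas 6 rod markers summed to 2.28 and 2.98. Markers of other cell types were lower in the RPE cells of Dox, at 1580 against 945 CPM for 12 fibroblast markers, 2836 against 1812 for 10 melanocyte markers and 400 against 182 for 12 macrophage or antigen-presenting markers. The part of other cells' RNA in the repair gene levels was not tested.

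The first question was whether RPE cells carried more repair gene RNA after Dox. In RPE cells 41 of the 42 genes had at least 50 UMIs over both libraries. None of them was 1.5-fold higher in Dox and 1 was 1.5-fold lower, where 1.66% of the 12774 genes with 50 UMIs were that much higher and 4.92% that much lower. The exception was Brca1. The median log2 ratio of Dox over Control over the 41 genes was 0.02, beside -0.01 over all genes, and 23 were above 0 and 18 below. Their summed level was 724 CPM in Control against 727 in Dox, for a log2 ratio of 0.005 with an interval of -0.023 to 0.033. For 35 of the 41 genes the whole interval lay inside 1.5-fold in both directions, so that a larger change in these libraries was outside counting error. The summed cells include RPE that Dox did not reach, so these intervals do not bound the change in cells that it reached. The plot of ratios by route shows how close most genes were to 0.

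**Figure D1:**
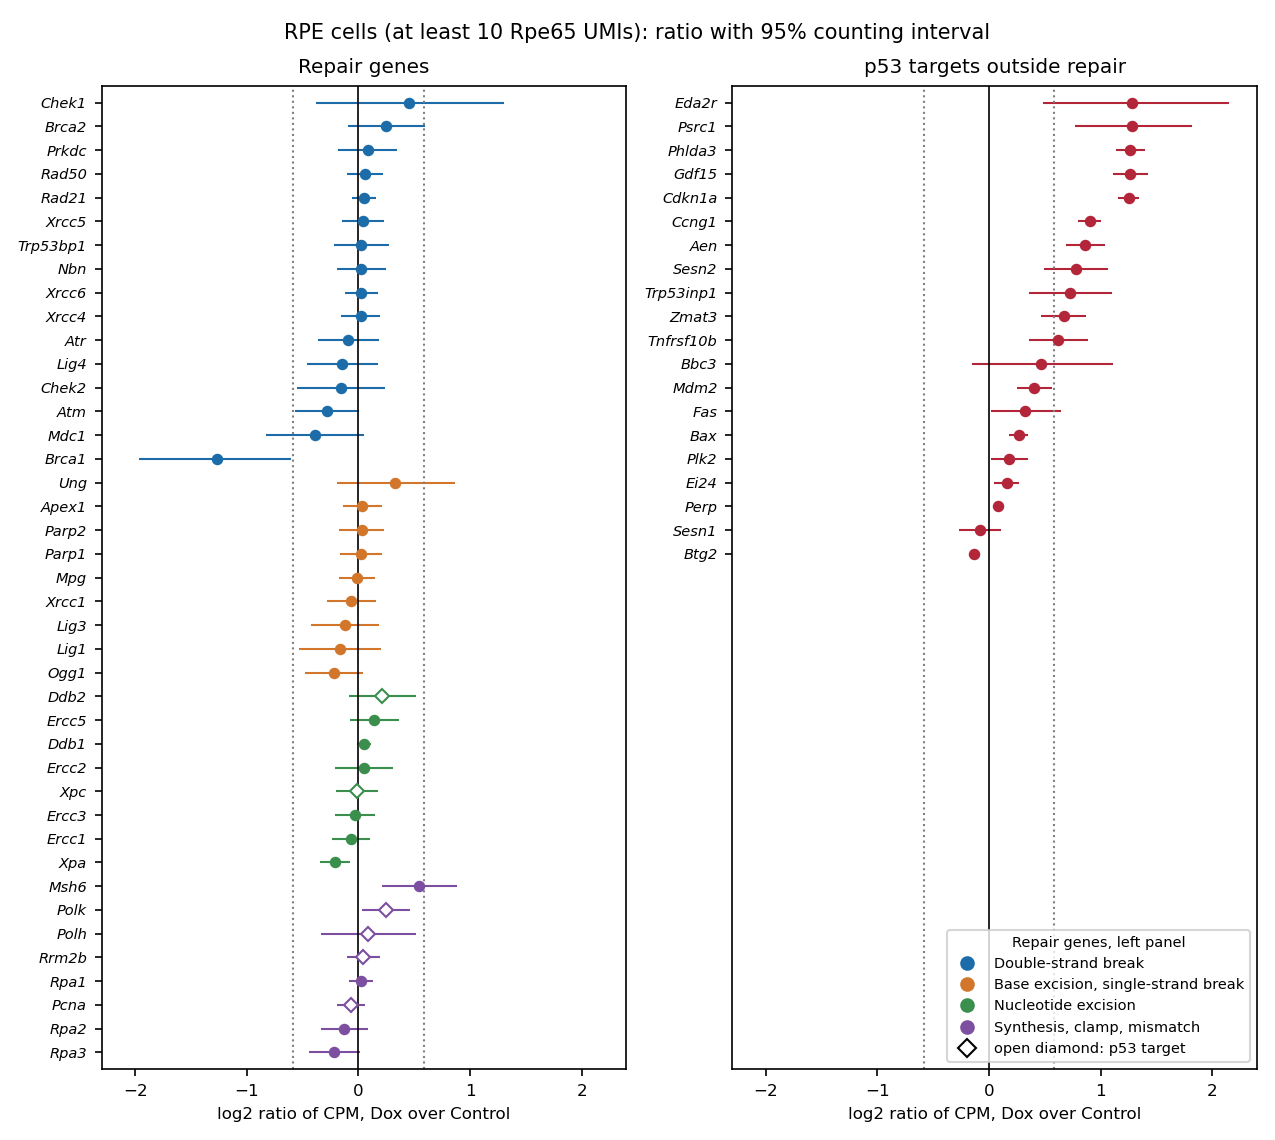
Log2 ratio of CPM, Dox over Control, in RPE cells for the 41 repair genes with at least 50 UMIs (left, coloured by route, open diamonds for known p53 targets) and for 20 p53 targets outside repair (right). Bars are 95% counting intervals and dotted lines mark 1.5-fold. Among the repair genes only Brca1, at -1.27, lies beyond a dotted line, while 11 of the 20 other p53 targets lie beyond the right one.

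Among the genes of double-strand break sensing and repair, 16 of 17 had enough UMIs, and their ratios ran from -1.27 to 0.45 with a median of 0.02. Fancd2, a Fanconi anaemia protein, was not counted, with 5 Control and 4 Dox UMIs. Rad21, the cohesin subunit that holds sister chromatids together, was at 47.8 CPM in Control against 49.6 in Dox, for a log2 ratio of 0.05 (-0.06 to 0.16). Xrcc6, which encodes the Ku70 end-binding protein, was at 26.4 and 26.9 CPM, for a log2 ratio of 0.02 (-0.12 to 0.17). These 2 genes, those with the most UMIs in the route, had almost the same level in both libraries. Of the damage kinases, Atm stood at 8.02 and 6.60 CPM, Atr at 8.32 and 7.82 CPM and Prkdc, which encodes the catalytic subunit of DNA-PK, at 8.36 and 8.85 CPM, and each of these ratios had an interval that included 0. The summed level of the 17 genes was 199.7 CPM in Control against 200.4 in Dox.

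Brca1, which acts in homologous recombination, had 59 UMIs in Control RPE cells but 29 in those of Dox. Its level fell from 2.24 CPM (1.71 to 2.89) to 0.929 CPM (0.622 to 1.33), for a log2 ratio of -1.27 (-1.96 to -0.61). Its partner Brca2 stood at 4.64 and 5.51 CPM, for a log2 ratio of 0.25 (-0.09 to 0.60), and it overlaps another gene on its own strand. Brca1 lies on chr11:101488764-101551955 of GRCm38, on the minus strand, and overlaps no other listed gene.

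In base excision and single-strand break repair all 9 genes had enough UMIs, with ratios from -0.22 to 0.33 and a median of -0.01. Mpg, the glycosylase that removes alkylated bases, was at 21.5 CPM in Control against 21.3 in Dox, for a log2 ratio of -0.01 (-0.18 to 0.15). Apex1, the endonuclease that cuts at the abasic site, was at 19.2 and 19.7 CPM, for a log2 ratio of 0.04 (-0.14 to 0.21). For 8 of the 9 genes the interval lay inside 1.5-fold. The exception was Ung, the uracil glycosylase, with 53 and 79 UMIs, giving a log2 ratio of 0.33 (-0.19 to 0.86). The 9 genes summed to 106 CPM in Control against 105 in Dox.

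Nucleotide excision repair held the gene with the most UMIs of the 42. Ddb1, a subunit of the damage-binding complex and of a ubiquitin ligase that also serves other pathways, was at 146 CPM in Control against 152 in Dox, for a log2 ratio of 0.05 (-0.01 to 0.11). A UMI marks 1 RNA molecule at its 5′ end and CPM is not divided by length, but whether transcripts of different length were captured alike was not tested. Xpa, the scaffold that verifies the lesion, was next in this route at 34.1 and 29.5 CPM and was the gene of the route whose interval lay below 0, for a log2 ratio of -0.21 (-0.34 to -0.07). All 8 intervals of the route lay inside 1.5-fold, and the 8 genes summed to 261 CPM in Control against 263 in Dox.

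Among the 8 genes of synthesis, clamp, single-strand binding and mismatch repair the ratios ran from -0.21 to 0.55, with a median of 0.03. Rpa1, the large subunit of the single-strand binding protein, was at 48.7 and 49.4 CPM, for a log2 ratio of 0.02 (-0.09 to 0.13). Rpa2, the middle subunit, was at 14.0 and 12.9 CPM, for a log2 ratio of -0.13 (-0.33 to 0.08). Msh6, a mismatch recognition protein, came nearest to the fold from below: 119 Control and 206 Dox UMIs were found, 4.52 and 6.60 CPM, for a log2 ratio of 0.55 (0.21 to 0.88). Its interval lay above 0 and reached past 1.5-fold.

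The 6 p53 targets among the repair genes were set beside 22 p53 targets outside repair. None of the 6 was 1.5-fold changed in RPE cells, and all 6 intervals lay inside 1.5-fold. Polk, a DNA polymerase that copies past bulky lesions, was at 11.4 CPM in Control against 13.6 in Dox, for a log2 ratio of 0.25 (0.03 to 0.46), the one interval of the 6 that lay above 0. Ddb2, which recognises ultraviolet lesions together with Ddb1, was at 6.08 and 7.05 CPM, for a log2 ratio of 0.21 (-0.09 to 0.52). Xpc, the other recognition factor, was at 16.4 and 16.2 CPM, for a log2 ratio of -0.01 (-0.20 to 0.18). For both damage recognition genes the interval included 0.

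Of the remaining p53 targets in repair, Polh, the polymerase that bypasses thymine dimers, was at 3.23 and 3.43 CPM (log2 ratio 0.09, -0.34 to 0.51). Rrm2b, the p53-inducible ribonucleotide reductase subunit that supplies nucleotides in resting cells, was at 26.9 and 27.8 CPM (log2 ratio 0.04, -0.10 to 0.19). Pcna, the sliding clamp, was at 36.1 and 34.4 CPM (log2 ratio -0.07, -0.20 to 0.06). Pcna has named pseudogene copies, so its count is uncertain. The 6 genes summed to 100.1 CPM in Control against 102 in Dox, for a log2 ratio of 0.03 (-0.04 to 0.11).

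The p53 targets outside repair differed from this. Over all RPE cells, 20 of 22 listed genes had enough UMIs. Of these, 11 were at least 1.5-fold higher in Dox and none was that much lower, with a median log2 ratio of 0.65. Eda2r, which encodes a receptor, had 18 and 52 UMIs, giving a log2 ratio of 1.28 (0.49 to 2.15). Psrc1, a spindle protein, had 43 and 124 UMIs, giving a log2 ratio of 1.28 (0.77 to 1.82). Phlda3, an inhibitor of Akt, rose from 26.5 to 63.8 CPM, for a log2 ratio of 1.27 (1.14 to 1.39), and Cdkn1a, the cell cycle inhibitor p21, rose from 47.7 to 113 CPM, for a log2 ratio of 1.25 (1.16 to 1.34). The ratios of this list differed between the RPE subclusters given below, and in the largest of them the summed level was almost the same in both libraries. The list was compiled with earlier results of these libraries known and is no independent evidence of its direction.

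The promoters of both kinds of p53 target were searched for the p53 consensus, because it is the sequence through which p53 binds. RefSeq promoter windows of GRCm38.p6, from 250 bases before to 50 bases after the start, were at hand for 33 of the 42 repair genes, among them Polk, Polh and Pcna but not Xpc, Ddb2 or Rrm2b. The p53 consensus half-site, a palindrome of 10 bases that reads alike on both strands, stood in 8.36% of all 32851 windows, and a full site, 2 half-sites up to 13 bases apart, in 0.0731%. No window of a repair gene held a full site, and Polk, at one of its 2 starts, was the sole repair gene with a half-site. Of 17 other p53 targets with a window, 8 held a half-site and Cdkn1a held a full site. Counted by window, as for the share of all windows, a half-site stood in 1 of 37 (2.70%) for the repair genes and 9 of 25 (36%) for the other p53 targets. Most of those repair genes are not p53 targets. For the p53 targets in repair alone it stood in 1 of 4 windows (25%), too few to compare the 2 kinds of p53 target. The stretches are shown 5′ to 3′ with the half-sites in capitals, Cdkn1a from chr17:29090882-29090961 on the plus strand and Polk from chr13:96519358-96519437 on the minus strand.
Cdkn1a: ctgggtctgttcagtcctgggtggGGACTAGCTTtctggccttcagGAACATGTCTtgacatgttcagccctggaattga
Polk: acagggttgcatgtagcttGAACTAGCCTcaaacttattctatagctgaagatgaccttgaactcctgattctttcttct
The marked half-sites of Cdkn1a lie 12 bases apart, the first beginning 73 bases before the start, and that of Polk begins 231 bases before a start inside the annotated gene. In the Cdkn1a stretch the 10 bases directly after the second half-site miss the consensus at a single base, so the search did not mark them. A match of letters is a description of the window and says nothing of binding in these cells.

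RPE cells were clustered without the repair genes and the p53 targets, which gave 6 subclusters. They are called cluster 1-like to cluster 5-like where they matched published marker lists, or by their leading gene. The one led by Serpina3n (cluster 4-like) held 89 Control and 195 Dox cells, with a median of 29571 and 30622 UMIs. Here 29 of the 42 repair genes had 50 UMIs, and none of the 29 was 1.5-fold changed in either direction. Of 8448 genes, 6.38% were that much higher in Dox and 5.14% that much lower. Among the repair genes under the minimum, Brca2 and Ung, picked after their values were seen, had intervals above 0 and are given at the end. The median log2 ratio of the 29 genes was 0.11, beside -0.02 over all genes. All 42 summed to 641 CPM in Control against 643 in Dox, for a log2 ratio of 0.005 (-0.08 to 0.09). By route, the nucleotide excision genes summed to 229 CPM in Control against 203 in Dox, for a log2 ratio of -0.17 (-0.31 to -0.03). The sums of the other routes had intervals that included 0, the largest ratio being that of base excision at 0.19 (-0.02 to 0.40). With fewer cells the intervals were wider, and those of 3 genes lay inside 1.5-fold. The ratios of the 29 genes ran from -0.574 to 0.523, where 1.5-fold is a log2 ratio of 0.585. The interval of 1 of them, in nucleotide excision repair, lay below 0. Control cells of this subcluster had a median doublet score of 0.310 against 0.139 in Dox, and without the highest scores, which left 64 Control and 195 Dox cells, Rad50, Ercc2 and Msh6 came past the fold at 0.86, 0.71 and 0.97.

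Of the p53 targets in repair, 4 could be counted in cluster 4-like cells. Polk had 30 and 88 UMIs there, for a log2 ratio of 0.38 (-0.24 to 1.02). Rrm2b had 65 and 179 UMIs, for a log2 ratio of 0.28 (-0.13 to 0.72), while Pcna had 92 and 177 UMIs, for a log2 ratio of -0.23 (-0.60 to 0.15). Xpc had 47 and 76 UMIs, for a log2 ratio of -0.48 (-1.03 to 0.07). The genes thus pointed both ways and each interval included 0. Summed over all 6, the level was 94.4 CPM in Control against 93.2 in Dox, for a log2 ratio of -0.02 (-0.24 to 0.20).

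In the same cluster 4-like cells 16 of 18 p53 targets outside repair were 1.5-fold higher in Dox, with a median log2 ratio of 1.41. Cdkn1a rose from 52.1 to 331 CPM, for a log2 ratio of 2.67 (2.42 to 2.93). Gdf15, a stress cytokine, rose from 23.0 to 126 CPM, for a log2 ratio of 2.45 (2.07 to 2.85), and Phlda3 from 41.9 to 184 CPM, for a log2 ratio of 2.13 (1.85 to 2.43). Phlda3 was also among the genes that led this subcluster. The list summed to a log2 ratio of 1.30, which was 1.17 without the highest doublet scores and 1.44 in thinned cells. In these cells the fibroblast markers summed to 267 CPM in Control against 75.3 in Dox, the melanocyte markers to 3923 against 2112 and 10 smooth muscle or pericyte markers to 447 against 215, and their part in the result was not tested. The plot of both lists by subcluster sets the repair genes beside these.

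**Figure D2:**
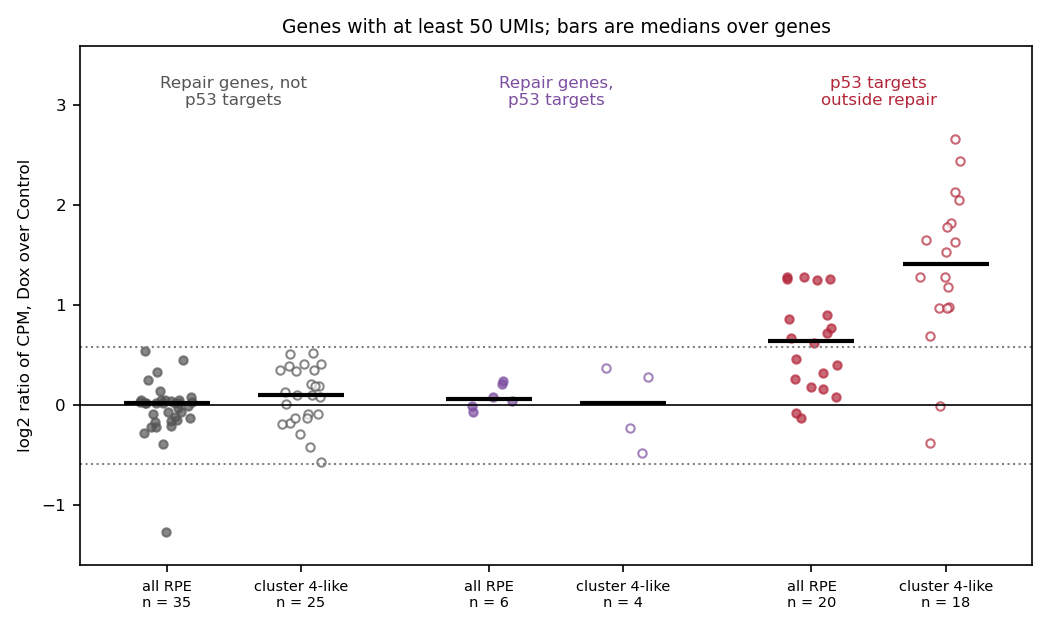
Log2 ratio of CPM, Dox over Control, of single genes (points) with their median (bars) for repair genes that are not p53 targets, repair genes that are, and p53 targets outside repair, in all RPE cells (filled) and in cluster 4-like cells (open). Dotted lines mark 1.5-fold. Medians of both repair lists stay at 0.11 or below, while that of the other p53 targets is 0.65 in all RPE cells and 1.41 in cluster 4-like cells.

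The other RPE subclusters are given one by one, and how many genes could be counted depended on their UMIs. In cluster 1-like cells (793 Control, 869 Dox), 39 repair genes were counted and none was past the fold, where 0.951% of genes were higher and 2.85% lower. In cluster 2-like cells (391 and 283), led by the fibroblast genes Mgp and Dcn and with median doublet scores of 0.422 and 0.385, 34 were counted and 1 was past the fold, against 4.68% of genes in either direction. That gene was Msh6, with 21 and 38 UMIs, giving a log2 ratio of 1.29 (0.48 to 2.13). Msh6 reached the UMI minimum there only through its higher count in Dox, so its direction was partly set by it. In cluster 2-like cells the 42 genes summed to a log2 ratio of 0.065 (0.003 to 0.127) and the double-strand genes to 0.20 (0.08 to 0.32). The sums of the other routes there had intervals that included 0, as had the sums over all 42 in cluster 1-like and Igf2-led cells. In Igf2-led cells (85 and 82) 8 were counted and none was past the fold, against 6.82% of genes. Cluster 5-like cells (18 and 8) held too few UMIs for more than 1 gene. Of the p53 targets outside repair, 2 of 17 counted were 1.5-fold higher in cluster 1-like cells. Their median log2 ratio there was 0.05, and the whole list summed to 0.02 (-0.02 to 0.06). In cluster 2-like cells 6 of 17 were higher, with a median of 0.48, and in Igf2-led cells 2 of 10, with a median of 0.11.

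Cluster 3-like cells (150 Control, 193 Dox) were led by nuclear RNAs such as Gm26917 and Malat1, and also by Cck, Pmel, Cited1 and Stmn3. Cck, Pmel, Cited1 and Stmn3 were likewise among the genes that led the cluster of Melanocyte-like cells. The cluster 3-like cells had a median of 4293 and 4892 UMIs and stood apart. Here 3 of 17 counted repair genes were past the fold, but so were 26.4% of all genes, and the median over all genes was 0.15. The 42 repair genes summed to 932 CPM in Control against 1028 in Dox, for a log2 ratio of 0.14 (0.02 to 0.26). Ddb2 had 18 and 42 UMIs, for a log2 ratio of 0.94 (0.11 to 1.82), and Polk 22 and 45 UMIs, for a log2 ratio of 0.75 (-0.02 to 1.56). Xrcc6 went the other way with 43 and 33 UMIs, for a log2 ratio of -0.66 (-1.36 to 0.02). All 5 p53 targets in repair that could be counted were above 0, and the 6 summed to 150 CPM in Control against 222 in Dox, for a log2 ratio of 0.57 (0.28 to 0.86). Ddb2 and Polk reached the UMI minimum only through their higher counts in Dox, so their direction was partly set by it. The sum takes in all 6 genes whatever their count. Outside repair, 8 of 13 counted p53 targets were 1.5-fold higher in cluster 3-like cells and all 13 were above 0. Their median log2 ratio was 0.86. The whole list summed to 888 CPM in Control against 1646 in Dox, for a log2 ratio of 0.89 with an interval above 0. In this subcluster both lists of p53 targets were thus higher in Dox. Several marker lists moved with these values. The melanocyte markers summed to 10002 CPM in Control against 3201 in Dox, the 9 RPE markers to 62926 against 46894, and 10 endothelial markers to 36.7 against 191. Their part in the result was not tested.

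Brca1 was the one repair gene that went the same way in every cell type where both libraries had UMIs of it. Besides the RPE cells, 10 groups of other cells were compared. A further 88 Control and 73 Dox cells clustered with the RPE cells but had under 10 Rpe65 UMIs, and they were left out of the cell types compared. Of the 11 groups compared, 9 had Brca1 UMIs in both libraries. In all 9 Brca1 was lower in Dox, and in 5 of them the whole interval lay below 0. No other of the 42 genes had a single direction in every cell type with UMIs in both libraries. The share of all genes with a single direction was not counted. The Cxcl10-led and Sfrp4-led groups also carried fibroblast markers. In the Snhg7os-led group the melanocyte markers summed to 12940 CPM in Control against 5441 in Dox, the most after Melanocyte-like cells. All groups came from the same libraries, so the 9 are not separate observations. In Fibroblast-like cells Brca1 fell from 207 to 69 UMIs, 3.54 to 1.42 CPM, for a log2 ratio of -1.31 (-1.73 to -0.91). It was the sole gene of 41 counted there past the fold, where 4.46% of genes were.

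The highest Brca1 level stood in Melanocyte-like cells, at 44.8 CPM (39.6 to 50.4) in Control against 31.2 (25.1 to 38.4) in Dox, for a log2 ratio of -0.52 (-0.88 to -0.17). It came past 1.5-fold at -0.90 with the mean of cells' CPM and at -0.60 without the highest doublet scores. In Control 10.5% of these cells had a Brca1 UMI (9.20 to 11.9, exact Clopper-Pearson) at a median of 1244.5 UMIs per cell. Among Fibroblast-like cells 1.79% did (1.55 to 2.06) at a median of 4755 UMIs, and among RPE cells 3.47% (2.61 to 4.52) at 16013.5 UMIs. In CPM the RPE cells were below the Fibroblast-like cells in both libraries, and at equal depth of 2000 UMIs the share with a Brca1 UMI was 0.602% of RPE and 0.780% of Fibroblast-like cells in Control. The share in RPE cells is therefore not read as expression above that in Fibroblast-like cells.

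Melanocyte marker RNA fell alongside Brca1. In Fibroblast-like cells the 10 melanocyte markers summed to 1929 CPM in Control against 569 in Dox, for a log2 ratio of -1.76, and in RPE cells their log2 ratio was -0.65. RPE cells make some of these pigment genes themselves: Tyr was at 196 and 202 CPM there, whereas Pmel was at 298 and 63.7 CPM. Per 10000 melanocyte marker UMIs there were 12.4 Brca1 UMIs (10.9 to 13.9) in Melanocyte-like cells of Control and 12.6 (10.1 to 15.4) in those of Dox. In Fibroblast-like cells there were 18.3 (15.9 to 21.0) and 25.0 (19.5 to 31.6), above the Melanocyte-like cells. In RPE cells there were 7.91 (6.02 to 10.2) and 5.13 (3.44 to 7.37), below the Melanocyte-like cells in both libraries. The part of melanocyte RNA in the fall of Brca1 was not tested. Melanocyte-like cells of Dox also carried more RPE marker RNA, 30055 CPM against 10448 CPM in Control, and had a median of 772 UMIs.

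**Figure D3:**
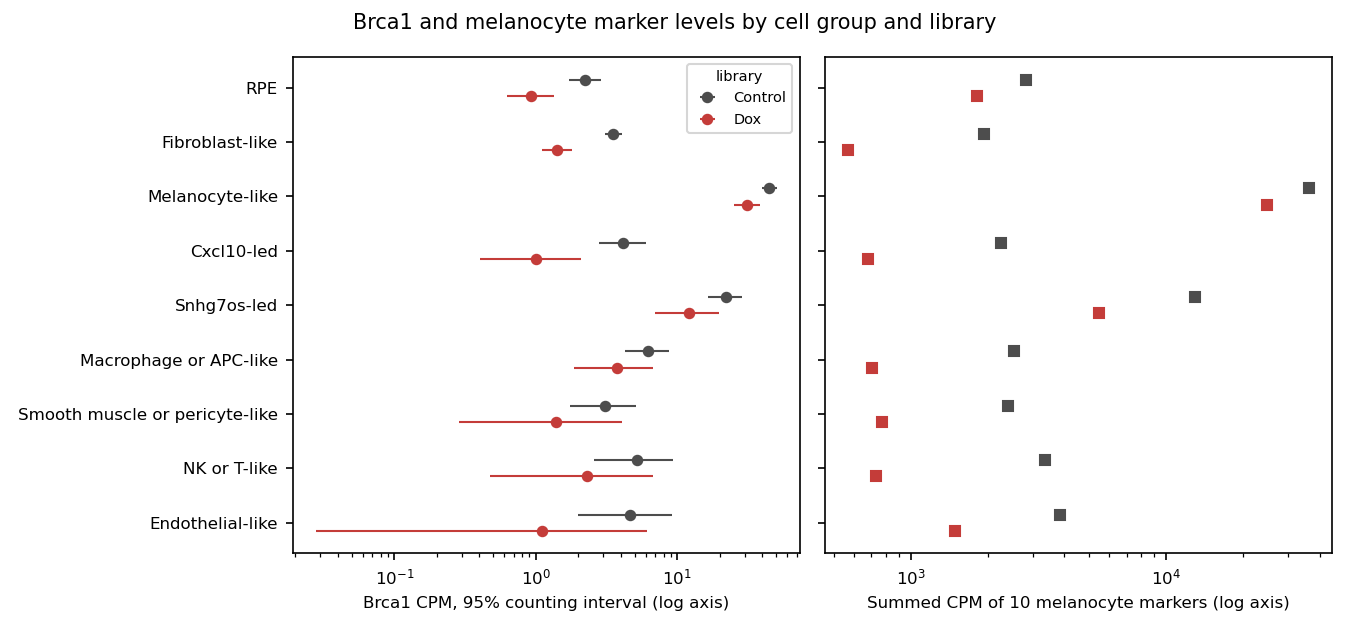
Level of Brca1 in CPM with 95% counting intervals (left, log axis) and summed CPM of 10 melanocyte markers (right, log axis) in 9 cell groups of the Control (grey) and Dox (red) libraries. Brca1 is highest in Melanocyte-like cells, at 44.8 and 31.2 CPM, and in each group shown both measures are lower in Dox.

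Repair genes past the fold in the other cell types are given beside the share of all genes. Their counts are not read as a result about repair genes. In Melanocyte-like cells Lig1 (91 and 25 UMIs, log2 ratio -0.78, -1.48 to -0.13) and Rpa3 (129 and 35 UMIs, -0.80, -1.38 to -0.25) were past the fold among 36 counted, where 16% of genes were. In the Cxcl10-led group, a cluster with interferon-response genes that was left unnamed, Polk rose from 5.75 to 11.4 CPM, for a log2 ratio of 0.99 (0.42 to 1.57). It was the one gene of 35 past the fold, against 4.18% of genes. In Macrophage or antigen-presenting-like cells Atm, Xrcc5 and Ercc1 were past the fold downward among 30 counted, against 8.68%, and in Smooth muscle or pericyte-like cells Rpa2 was, among 29, against 7.46%. These calls changed when the highest doublet scores were left out: Rpa2 was no longer past the fold and Ercc5 was, at 0.98, while in the Macrophage or antigen-presenting-like cells Xrcc5 was lost and Ercc3 came past the fold at 0.75.

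The smaller groups gave few counts per gene. In the Snhg7os-led group, led by nuclear RNAs, 3 of 30 repair genes were past the fold (Brca1 and Rpa2 lower, Xrcc6 higher), where 13.8% of genes were. Among NK or T-like cells 3 of 22 were (Atm and Xrcc1 higher, Ercc1 lower), against 10.1%. Endothelial-like cells had 1 of 17, Xpc at 51 and 13 UMIs, against 9.43%, and the Sfrp4-led Fibroblast-like cells 1 of 6, Ercc1, against 14.4%. No repair gene reached 50 UMIs in Schwann-like cells. With so few genes counted, these shares are not read as a result about repair genes.

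Levels were then compared between cell types. Ddb1, on chr19:10605327-10629819 of the plus strand and overlapping Tkfc on the other strand, was higher in RPE cells than in any of the 10 other groups in both libraries. The next group, Melanocyte-like cells, had 95.2 CPM (87.6 to 103) in Control against 107 (94.98 to 119) in Dox, below the 146 and 152 CPM of RPE cells with no overlap of the intervals. A Ddb1 UMI was found in 79.1% of Control and 80.4% of Dox RPE cells, and with cells thinned to 2000 UMIs in 24.8% and 25.9%. In thinned Fibroblast-like cells the shares were 13.1% and 13.4%.

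Set against Fibroblast-like cells, the largest other group, 5 of 41 repair genes with enough UMIs were at least 1.5-fold higher in RPE cells in both libraries and 11 at least 1.5-fold lower, where 21.4% of 13577 genes were higher and 36.2% lower. The median log2 ratio of RPE over Fibroblast-like over all genes was -0.26 in Control and -0.27 in Dox, and over the repair genes -0.33 and -0.21. The 5 higher genes were Ddb1, Ercc2, Ercc3, Lig4 and Xrcc6. Lig4, the ligase that closes end joining, was at 6.23 against 2.75 CPM in Control and 5.64 against 2.35 CPM in Dox. Xrcc6 was at 26.4 against 14.7 CPM in Control and 26.9 against 14.2 CPM in Dox. Ercc2 and Ercc3, the helicases of the transcription factor TFIIH, had log2 ratios of 1.22 and 0.62 in Control and 1.07 and 0.67 in Dox.

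The 11 genes lower in RPE cells were Chek2, Mdc1, Brca1, Nbn, Lig1, Parp2, Mpg, Xpc, Ercc1, Pcna and Rpa3. Brca1 was not among them with the mean of cells' CPM or after thinning, and thinning also dropped Nbn and Parp2 and added Msh6. Lig1, the ligase of replication and long-patch repair, was at 4.60 against 14.5 CPM in Control and 4.10 against 15.4 CPM in Dox. Rpa3, the small single-strand binding subunit, was at 12.2 against 30.9 CPM in Control and 10.5 against 30.9 CPM in Dox. Mdc1, which docks repair proteins at marked chromatin, was at 3.65 against 9.24 CPM and 2.79 against 9.44 CPM. For these 3 genes RPE cells were below Fibroblast-like cells in both libraries.

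**Figure D4:**
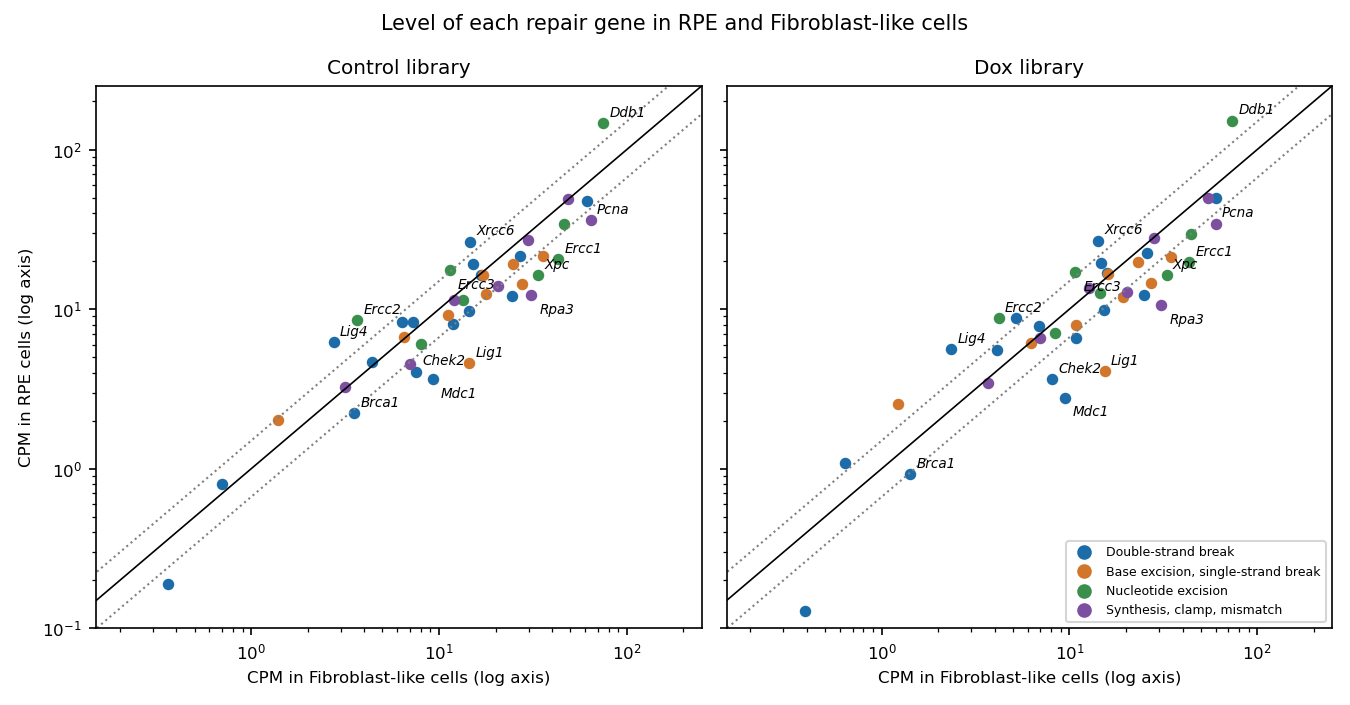
Level of each of the 42 repair genes in RPE cells against Fibroblast-like cells, both in CPM on log axes, in the Control (left) and Dox (right) library. Points are genes coloured by route, the solid line marks equal levels and dotted lines 1.5-fold. Ddb1, at 146 and 152 CPM in RPE cells, lies above the upper dotted line and Lig1 and Rpa3 lie below the lower one in both libraries.

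Over all 11 cell types the RPE cells ranked at the median eighth for a repair gene in both libraries, and they were the lowest of all for 11 genes in Control and 7 in Dox. Neighbours in this order mostly could not be separated: for Ddb1, 9 of 10 neighbouring pairs had overlapping intervals in each library. Parp1, which signals single-strand breaks, was highest in Macrophage or antigen-presenting-like cells at 48.9 and 52.3 CPM and next in Smooth muscle or pericyte-like cells at 45.6 and 44.7 CPM, and it was at 16.4 and 16.7 CPM in RPE cells. Rpa2 was highest in NK or T-like cells at 60.8 and 62.8 CPM, as were Lig1 at 26.9 and 29.1 CPM and Ung at 10.8 and 7.65 CPM. Pcna was highest in Endothelial-like cells at 108 and 113 CPM. For Parp1, Pcna, Lig1 and Rpa2 the interval of the highest group overlapped that of the second in both libraries.

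Of 94 other repair genes, compiled for comparison, 85 had enough UMIs in RPE cells, none was 1.5-fold higher and 1 was lower, with a median log2 ratio of 0.00. That gene, Fancf of the Fanconi core complex, had 49 and 34 UMIs, giving a log2 ratio of -0.77 (-1.45 to -0.11). Of the same list, 47 were counted in cluster 4-like cells, of which 3 were past the fold upward and 1 downward, beside the 6.38% and 5.14% of all genes there. Fance, also of the Fanconi core complex, had 9 and 61 UMIs, for a log2 ratio of 1.58 (0.57 to 2.78). Mgmt, which removes alkyl groups from guanine, was at 23.8 and 40.8 CPM, for a log2 ratio of 0.78 (0.37 to 1.20). Rfc3, a clamp loader subunit, had 14 and 49 UMIs (0.63, -0.25 to 1.60), and Tdp2, which frees topoisomerase II from DNA ends, had 28 and 42 UMIs (-0.59, -1.32 to 0.15).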

How the data were processed

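The deposited files hold UMI counts per gene and cell that the authors made using Cell Ranger, for which the matrix headers give 4.0.0 and the methods more than one version, on mm10 from a 5′ library. Whether counting used strand was not given in the sources used here; 19 of the 42 genes overlap a gene on the other strand and 1 (Brca2) one on its own. Cells with at least 500 UMIs, 200 to 6000 genes, a complexity of at least 0.8 and under 20% mitochondrial UMIs were kept, after the study's limits. The Control library held 117731270 UMIs in total, the Dox library 103997248.

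Cells were integrated and clustered with Seurat 5.3.0 under R 4.3.3 (SCTransform, 3000 features, 40 components, resolution 0.1), with the repair genes and p53 targets left out, and named from marker lists. UMIs were summed per cell group and library and divided by the total (CPM). Intervals are exact Poisson for a level, exact conditional binomial for a ratio and Clopper-Pearson for a share (scipy 1.17.1). A gene was counted with at least 50 UMIs over both libraries and called past 1.5-fold. Some genes reached this minimum only through the library where they were higher, so their direction is partly set by it. This holds for Eda2r in RPE cells and for Fance and Rfc3 in cluster 4-like cells, among others. The code was tested on simulated data. Scrublet (scanpy 1.11.5) placed no useful threshold in Dox, so doublets were removed only by the gene limit, and the highest scores were left out as an alternative.

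The genes, lists and groups were chosen with earlier results of these data known. Values per library are given for genes past the fold in RPE or cluster 4-like cells, for p53 targets in repair, and for the 2 other genes of each route with the most UMIs. Of other lists the 3 largest in each direction are given. Further genes were named after their values were seen. Pseudogene copies make Pcna uncertain.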

Additional observations from a re-analysis of the deposited data

Results flagged for a closer look

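Of the 42 repair genes, 2 were past 1.5-fold upward in one cell group and downward in another. The share of all genes that did so was not counted, so the number is not read as a result about repair genes. For Atm the log2 ratio (Dox over Control) was -0.82 in Macrophage or antigen-presenting-like cells (53 and 17 UMIs) and 0.95 in NK or T-like cells (32 and 38 UMIs). In the Macrophage or antigen-presenting-like cells Atm reached the UMI minimum only through its higher count in Control, so its direction there was partly set by it. Xrcc6 had -0.66 in the cluster 3-like RPE cells (43 and 33 UMIs), with an interval that included 0, and 0.84 in the Snhg7os-led group (38 and 36 UMIs). With 1 library per condition the difference between the groups was not tested.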

How the results depend on the processing

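Each move was judged against the mean distance from a ratio to the ends of its counting interval. For the median of a group, the summed ratio of that group served as the ratio. No alternative moved the summed ratio of the repair genes in RPE cells by more than that distance. The same held for the medians of the double-strand and the synthesis, clamp and mismatch groups. Of the ratios of single genes, 480 moved by no more and 12 by more, 11 of them after thinning. One alternative, RPE cells without clusters 2-like and 5-like, was added after seeing the data, and changed none of the counts or medians. The count of 1 gene past the fold became 2 with no cell filter (Brca1 and Msh6), 3 with the mean of cells' CPM (Brca1, Msh6 and Chek1) and 0 at a minimum of 100 UMIs. In cells thinned to 2000 UMIs the count stayed at 1, with Ogg1 at -1.09 in place of Brca1, which then had too few UMIs. The base excision median moved from -0.01 to -0.10 with the mean of cells' CPM and to -0.12 after thinning; the mean of cells' CPM also took nucleotide excision to 0.089 and the p53 targets in repair to 0.15. In cluster 4-like cells the count of 0 became 1 after thinning (Ddb1, -0.95) and 3 without the highest doublet scores. With the mean of cells' CPM 8 genes were past the fold in Melanocyte-like, 5 in Macrophage or antigen-presenting-like and 3 in Smooth muscle or pericyte-like cells, and without the highest doublet scores 4 in Melanocyte-like cells. Genes 1.5-fold higher in RPE than Fibroblast-like cells numbered 9 after thinning. The cause was not tested. Brca1 in RPE cells ranged from -1.598 to -1.02 over 12 alternatives. No paired analysis was possible because each condition is 1 library. Depth limits the rarest genes, such as Fancd2 and Chek1.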

Other observations

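A list of 15 genes of the cell cycle was set beside the repair genes that peak in S phase. In RPE cells 8 of the 15 had at least 50 UMIs, none was past 1.5-fold, and the list summed to 53.5 CPM in Control against 50.7 in Dox, for a log2 ratio of -0.08 (-0.18 to 0.03). Mki67 and Top2a, which mark dividing cells, had 7 and 14 UMIs in Control and 9 and 16 in Dox over all RPE cells. Ccna2, a cyclin of S phase and mitosis, had 2 and 12 UMIs, for a log2 ratio of 2.34 (0.17 to 5.54), and was named after its values were seen.

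Some repair genes lay under the UMI minimum in cluster 4-like cells and still had intervals above 0. Brca2 had 6 UMIs in Control and 37 in Dox, for a log2 ratio of 1.45 (0.19 to 2.98). Ung had 1 and 20 UMIs, for a log2 ratio of 3.14 (0.50 to 8.52). Both were picked after their values were seen, out of 13 genes under the minimum there. An RPE cell held UMIs of a median of 8 of the 42 genes in Control and 9 in Dox, and after thinning to 2000 UMIs of a mean of 1.49 and 1.48.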
